A study of Populus deltoides with 12 samples.

Results

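The genes described here are 106 genes of *Populus deltoides* (eastern cottonwood poplar) that were expressed more strongly in purple leaves than in green leaves in both pairs of leaf samples of the study. They were chosen on the measured values: d1 is the mean log2(FPKM + 1) of F_P minus that of F_G, d2 is the same for P minus G, and both had to be at least 1.5, with a mean of at least 10 FPKM in F_P and in P. FPKM are fragments scaled to transcript length and library size. Of 46170 genes in the files, 114 met these thresholds, and 8 of these were left out because the study lists them as anthocyanin structural genes or transcription factors in its supplementary tables. The remaining 106 were among 11131 annotated genes outside those tables with at least 10 FPKM in both purple groups.

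F_P and F_G were fully expanded purple and green leaves of one cultivar, ZSY ('Zhongshanyuan'). P were purple leaves of QHP ('Quanhong') and G were green leaves of L2025, and in P vs. G the effect of color cannot be told apart from that of cultivar. All plants were field-grown seedlings aged 2 years, every sample carries the genotype label WT, no treatment is given, and each group had 3 biological replicates (12 libraries). Where the study describes the collection of leaves, they were fully expanded in all groups. For QHP and L2025 it names mature leaves, the fourth and the fifth, and for ZSY it gives no leaf position there. In F_P vs. P and F_G vs. G, cultivar therefore cannot be told apart from a possible difference in leaf position.

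Purple color in poplar leaves comes from anthocyanins, glycosylated flavonoid pigments stored in the vacuole. Phenylalanine enters the phenylpropanoid pathway, its product is built into flavonoids, and late enzymes turn these into colored glycosides. Glutathione S-transferases are needed for anthocyanin transport to the vacuole in Arabidopsis and maize, and MYB and bHLH transcription factors switch on the pathway genes in many plants. The files pair no identifier with a gene name or a protein description, so that roles are given below only as pathways or functional classes, taken from the study's own KEGG and GO tables. Those tables list genes that the study called as different in these same samples and are shortened in the copy read here, so that they are no independent evidence of direction and a missing entry has no meaning. They covered 46 of the 106 genes (31 with a KEGG pathway and 20 with a GO term), and 60 had neither.

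The libraries held 14543579 to 16628923 fragments on annotated genes. The tissue label was looked at with 23 genes of the light-harvesting antenna proteins, none of which was at 0 in all libraries of any group. The study's table lists these 23 genes because they differed in these samples. Some expression of them was thus fixed in advance, and they are a weak check. Their summed level was 7392 to 7604 FPKM in F_P, 9340 to 10910 FPKM in F_G, 6131 to 6557 FPKM in P, and 20767 to 23791 FPKM in G, and its part in the results was not tested. The 3 replicates of a group were not equally close in F_G, P, and G: a chi-square over genes, divided by their number, was 10.4 for G replicate 3 against either other replicate and 3.20 between those. F_G replicate 3 gave 7.98 and 9.19, against 6.22, and P replicate 1 gave 6.17 and 5.39, against 3.43. Without G replicate 3 the rule found 105 genes, 101 of them among the 106, without F_G replicate 3 it found 106, of which 102 were shared, and without P replicate 1 it found 110, which included all 106. These are bulk samples, in which fewer cells of a type and less RNA per cell cannot be told apart.

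The values that chose the genes are given first, as a description. Over the 106 genes d1 was 1.503 to 5.80 (median 2.11) and d2 was 1.55 to 7.75 (median 2.56). Both differences were at least 2 in 48 genes, at least 3 in 11, and at least 4 in 4. The difference was larger between P and G in 67 genes and larger between F_P and F_G in 39, and both lay within 0.5 of each other in 45. Among the 11131 genes with at least 10 FPKM in both purple groups, a limit that itself favors genes high in F_P and P, 206 had at least 1.5 in d1, and 51.5% of these also had it in d2, while 607 had at least 1.5 in d2, and 17.5% of these also had it in d1. With the limma test that follows, 105 of the 106 passed in F_P vs. F_G, where 5.68% of all genes tested were higher in F_P, and 106 passed in P vs. G, where 9.85% were higher in P and 16.2% in G. Libraries did not overlap in 104 of them in F_P vs. F_G (33.2% of all genes tested, in this direction) and in 106 in P vs. G (33.4%). These counts follow from how the genes were chosen. In 91 genes every purple library was above every green library.

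**Figure D1:**
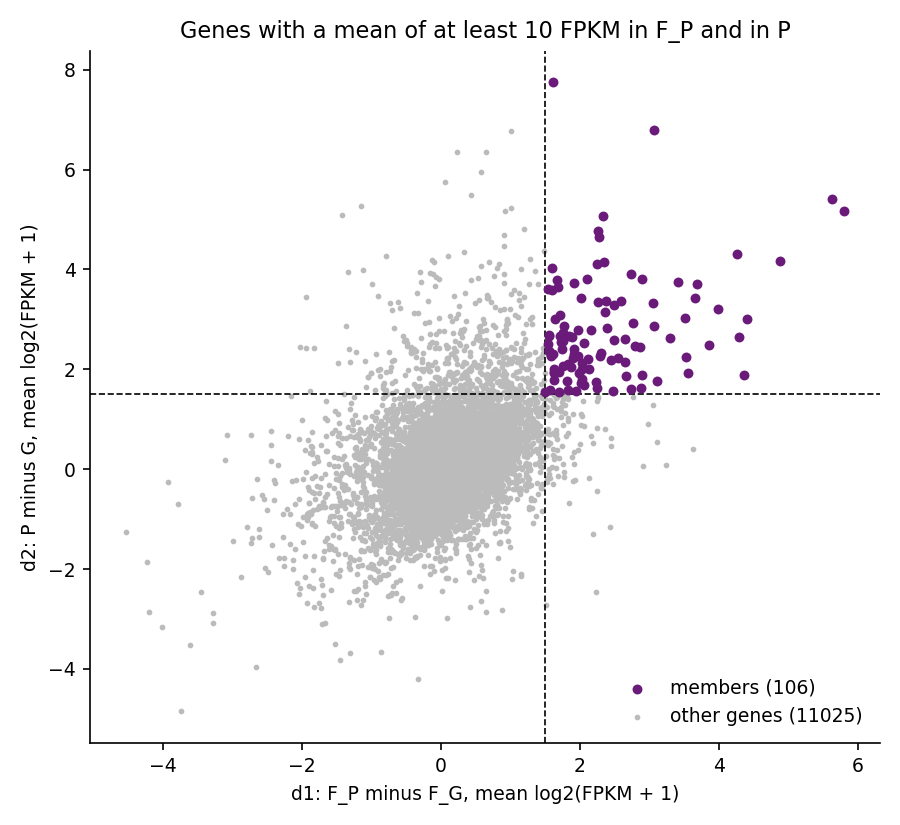
Each point is a gene with a mean of at least 10 FPKM in F_P and in P. The horizontal axis is d1 and the vertical axis d2, both as differences of mean log2(FPKM + 1), and dashed lines mark 1.5 on each axis. The 106 genes lie in the upper right corner, where d1 reaches 5.80 and d2 reaches 7.75.

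At the edge of the choice, the 3 genes just inside had a smaller difference of 1.503 (Podel.08G152600), 1.54 (Podel.01G277800), and 1.54 (Podel.15G043000). The 3 genes just outside had 1.498 (Podel.08G241100), 1.49 (Podel.10G225800), and 1.48 (Podel.01G360200). Podel.01G360200 averaged 354.8 FPKM in F_P and 129 FPKM in F_G, and 294 FPKM in P and 13.3 FPKM in G. No gap in the values separated both sides of the threshold.

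The genes covered a wide range of levels. Group means of single genes were 10.6 to 1561 FPKM in F_P (median 47.9), 0.425 to 368 FPKM in F_G (median 9.77), 10.4 to 633 FPKM in P (median 26.7), and 0 to 107 FPKM in G (median 3.27). In the green leaves 51 of the genes still averaged at least 10 FPKM in F_G and 24 did so in G, whereas 5 averaged under 1 FPKM in F_G and 15 in G. Only Podel.06G216500 averaged under 1 FPKM in both. Summed over the 106 genes, the level was 13553 to 13734 FPKM in the F_P libraries, 2567 to 2744 FPKM in F_G, 7647 to 7740 FPKM in P, and 1014 to 1065 FPKM in G. Replicates were close in the purple groups, with a median coefficient of variation of 4.57% in F_P and 7.22% in P, against 16.5% in F_G and 22.0% in G, where the levels are lower.

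**Figure D2:**
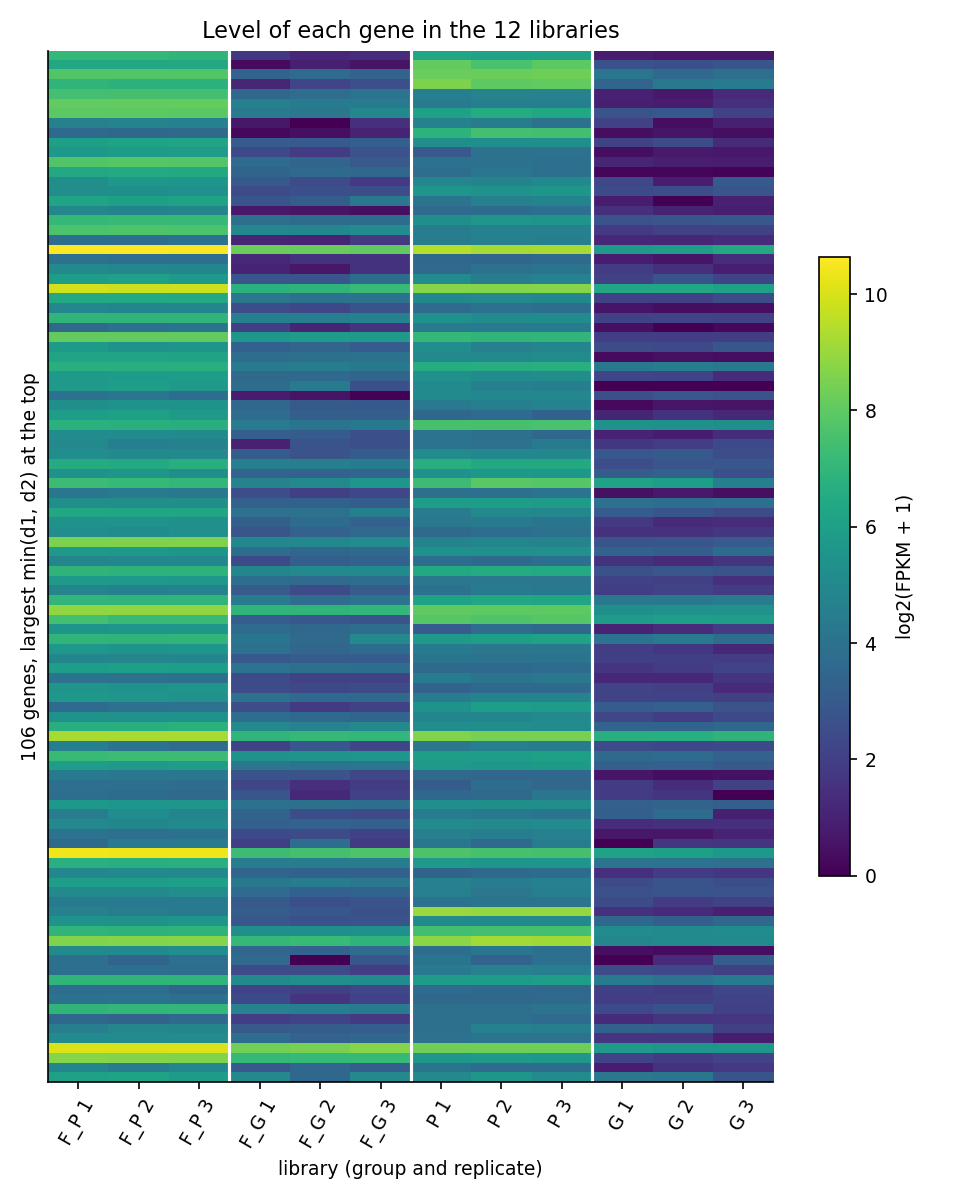
Color gives log2(FPKM + 1) of each of the 106 genes (rows, largest smaller difference of d1 and d2 at the top) in each of the 12 libraries (columns, by group and replicate). In most rows F_P is brighter than F_G and P is brighter than G, with gene medians of 47.9, 9.77, 26.7, and 3.27 FPKM in F_P, F_G, P, and G.

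The largest of the smaller differences was that of Podel.14G098600, a gene with 1 exon on the plus strand of chromosome 14 (bases 7113626 to 7115372 of the deposited annotation, whose build is not named). It had 136, 135, and 125 FPKM in F_P, against 2.28, 1.24, and 1.64 FPKM in F_G. In QHP and L2025 it had 77.1, 69.2, and 69.0 FPKM in P, against 0.798, 0.650, and 0.657 FPKM in G. It was close to off in every green library and its role is not annotated.

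Podel.13G027300, annotated under flavonoid biosynthesis, had 214, 217, and 213 FPKM in F_P, against 9.52, 12.2, and 9.35 FPKM in F_G. It had 292, 301, and 308 FPKM in P, against 17.1, 11.6, and 14.2 FPKM in G. With d1 of 4.26 and d2 of 4.32 its contrast was almost the same in both pairs. This gene lies on the minus strand of chromosome 13 (1690267 to 1692395).

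Podel.05G109600 had 177, 179, and 176 FPKM in F_P, against 10.8, 12.8, and 15.5 FPKM in F_G, and 23.3, 25.8, and 25.6 FPKM in P, against 0.942, 0.636, and 1.46 FPKM in G. Here d1 (3.68) and d2 (3.70) were again alike, although the gene was much lower in QHP and L2025 than in ZSY of the same color. The other genes with a large smaller difference were Podel.08G182600, Podel.08G182700, Podel.14G038600, Podel.11G042000, Podel.T077300, Podel.06G216500, and Podel.13G007400, described with their groups below. All of these stood apart from the green libraries in both pairs of samples. Podel.T077300, a model of 219 bases on scaffold_207 with no annotated role, had 24.0, 26.5, and 24.7 FPKM in F_P, 0.596, 0, and 1.79 FPKM in F_G, 24.5, 21.1, and 14.5 FPKM in P, and 3.33, 0.324, and 0.924 FPKM in G, and its 0.34 ± 0.16 in F_P vs. P did not pass (adjusted p = 0.12).

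Whether the genes also differed between leaves of the same color was not used to choose them, although the same libraries were. Each was therefore compared in F_P vs. P (purple) and in F_G vs. G (green) with limma on log2(FPKM + 1), and a gene passed where its p, adjusted by Benjamini-Hochberg over all genes tested, did not exceed 0.05 and the means lay at least 1 apart on the log2 scale. The p-values measure the spread between 3 biological replicates per group. In purple leaves 44 of the 106 genes were higher in F_P, where 5.05% of 24752 genes tested were, and 5 were higher in P, where 5.53% were. Among the other genes with at least 10 FPKM in both purple groups, 3.50% were higher in F_P and 1.66% in P. The median log2 fold change of the 106 genes was 0.76, beside −0.0021 for all genes tested. The F_P and P libraries did not overlap in 74 genes higher in F_P and in 20 higher in P, beside 31.3% and 30.5% of all genes tested. The largest share, 57 genes, did not pass in either direction.

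In green leaves 103 of the 106 genes passed the filter of 1 FPKM in at least 3 of the 6 libraries. Of these, 53 were higher in F_G, where 9.35% of 26789 genes tested were, 5 were higher in G, where 10.5% were, and 45 did not pass. Among the other genes with at least 10 FPKM in both purple groups, 9.31% were higher in F_G and 4.47% in G. Of the 103, 12 reached 1 FPKM in F_G libraries only and 2 in G libraries only. The filter kept these through the group where they were high, so their F_G and G libraries could not overlap. That did not fix which of them passed, as Podel.14G098600 (log2 fold change 0.66) did not. Their values in F_G vs. G, and the counts over the genes tested, are no support by themselves. Over all 106 genes with no filter, 53 and 5 passed, and the median log2 fold change was 1.12, beside −0.039 for all genes tested with the filter. Without G replicate 3, 53 were higher in F_G and 4 higher in G, and without F_G replicate 3, when 91 of the genes passed the filter, 43 and 5. Whichever G replicate was left out, Podel.08G182600 and Podel.19G001400, below 1 FPKM in F_G, failed the filter. Only 3 genes were thus higher in G without G replicate 1 or without G replicate 2. Without G replicate 3, Podel.08G076900 came to pass (−1.04). The F_G and G libraries did not overlap in 81 genes, 72 higher in F_G (26.7% of all genes tested) and 9 higher in G (31.5%).

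Genes higher in F_P than in P were often higher in F_G than in G. Of the 44 genes higher in F_P, 36 were also higher in F_G, none was higher in G, 7 did not pass, and 1 was below the filter. The gap between both fold changes of a gene equals d1 minus d2, and d1 and d2 were bounded by the choice, so this overlap is a description and not a test. In 68 genes the order of the group means was F_P, P, F_G, and G from high to low, in 15 it was P, F_P, F_G, and G, in 10 it was P, F_P, G, and F_G, in 7 it was F_P, F_G, P, and G, and in 6 it was F_P, P, G, and F_G. No gene had a higher mean in G than in F_P, whereas 7 had a higher mean in the green leaves of ZSY than in the purple leaves of QHP.

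**Figure D3:**
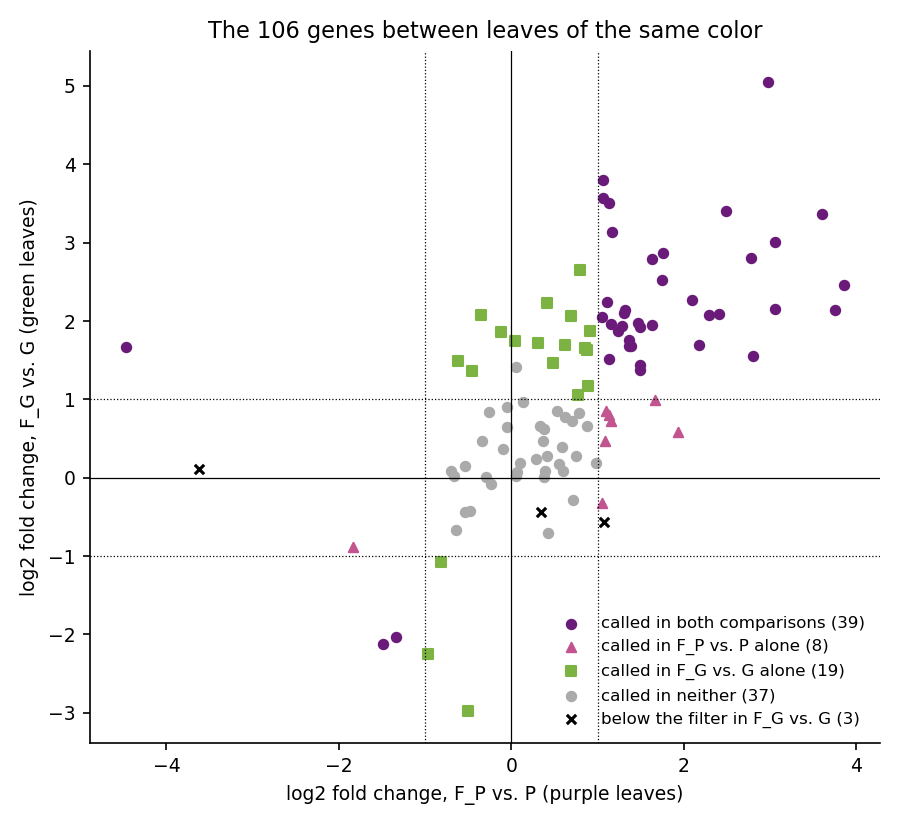
Each point is 1 of the 106 genes, with its log2 fold change in F_P vs. P on the horizontal axis and in F_G vs. G on the vertical axis (limma, vertical values without the low-value filter). Symbols give the comparison in which it passed, and dotted lines mark a log2 fold change of 1 in either direction. Most points lie in the upper right, where 36 genes passed in both, and 12G026700 and 06G216500 lie far to the left, at −4.47 and −3.62 in F_P vs. P.

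Among the readable entries, glutathione metabolism held 6 of the genes, the largest number for a KEGG pathway together with protein processing in the endoplasmic reticulum. Since the entries were shortened, which pathway holds the most of the genes is not known. The pathway makes and uses the tripeptide glutathione, and the tables do not say which enzymes these 6 genes encode. In purple leaves 4 of the 6 were higher in F_P and none in P, and in green leaves 5 were higher in F_G and 1 in G. Most genes of the whole set that passed went the same way. Of the 106 genes, 44 were higher in F_P and 5 in P, beside 5.05% and 5.53% of all genes tested. Of the 103 tested in green leaves, 53 were higher in F_G and 5 in G, beside 9.35% and 10.5%. Levels of 2 neighbouring genes on chromosome 8 were among the highest of all. Podel.08G198800 had 1353, 1313, and 1312 FPKM in F_P, 156, 179, and 208 FPKM in F_G, 201, 188, and 179 FPKM in P, and 68.8, 64.7, and 50.02 FPKM in G. Its F_G and P libraries overlapped, while F_P stood above all others, with a log2 fold change of 2.80 ± 0.049 (SE) in F_P vs. P (adjusted p = 4.4e-08) and 1.55 ± 0.14 in F_G vs. G (adjusted p = 7.7e-05).

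Podel.08G198700 (14122939 to 14124102), next to it (14127409 to 14128612) on the minus strand, had 1084, 1057, and 1076 FPKM in F_P, 335, 350, and 419 FPKM in F_G, 318, 319, and 316 FPKM in P, and 51.7, 47.6, and 49.1 FPKM in G. Every green ZSY library was above every purple QHP library. It was higher in F_P than in P by 1.75 ± 0.034 (adjusted p = 5.4e-08) and higher in F_G than in G by 2.86 ± 0.095 (adjusted p = 7.2e-07) on the log2 scale.

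Podel.19G131300, also of this pathway, had 371, 386, and 377 FPKM in F_P, 30.3, 30.1, and 33.9 FPKM in F_G, 26.3, 28.9, and 26.0 FPKM in P, and 5.70, 6.09, and 7.37 FPKM in G. Its fold change in F_P vs. P (3.76 ± 0.050, adjusted p = 1.6e-08) was second to that of Podel.03G072900 among the 106 genes. Podel.01G459300 had 269.9, 270.0, and 270.4 FPKM in F_P and 47.8, 58.7, and 52.5 FPKM in F_G, 136, 124, and 126 FPKM in P, and 2.91, 2.86, and 2.84 FPKM in G. Here the 4 groups were fully apart, and the gene was low in G alone. It was higher in F_P than in P by 1.07 ± 0.044 (0.95 under scaling to library totals and with voom) and higher in F_G than in G by 3.80 ± 0.11 (adjusted p = 3.9e-07).

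The 2 remaining glutathione genes went in different directions between leaves of the same color. Podel.10G029000, named because it is 1 of only 5 genes higher in G, had 110, 106, and 100.4 FPKM in F_P, 20.6, 16.5, and 18.6 FPKM in F_G, 187, 185, and 189 FPKM in P, and 42.8, 39.2, and 38.8 FPKM in G (log2 fold change −1.08 ± 0.10 in F_G vs. G, adjusted p = 7.7e-05). Podel.11G137700 had 49.5, 46.2, and 40.7 FPKM in F_P, against 21.5, 27.2, and 26.0 FPKM in P, and was higher in F_G than in G by 1.66 ± 0.15 (adjusted p = 5.6e-05). Beside these 6, the study's table let 45 further genes of the pathway be read. Of the 37 tested in F_P vs. F_G, 11 were higher in F_P and 8 in F_G, and of the 38 tested in P vs. G, 10 were higher in P and 18 in G, so the rest of the list did not move one way. In F_P vs. P, 11 of 35 were higher in F_P and 3 in P (median 0.59), and in F_G vs. G, 9 of 39 were higher in F_G and 11 in G (median −0.12).

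Protein processing in the endoplasmic reticulum, a pathway that covers chaperones, small heat shock proteins, and the quality control of proteins, also held 6 genes. None of them was higher in F_P and 3 were higher in P, whereas in green leaves 2 were higher in F_G, none in G, 3 did not pass, and 1 was below the filter. Over all 106 genes 44 were higher in F_P and 5 in P, beside 5.05% and 5.53% of all genes tested. Podel.12G026700 had 23.9, 21.3, and 20.6 FPKM in F_P, 7.80, 6.52, and 5.32 FPKM in F_G, 523, 492, and 499.9 FPKM in P, and 1.83, 1.39, and 0.931 FPKM in G. Its contrast was thus modest in ZSY (d1 = 1.62) and the largest of all genes in QHP and L2025 (d2 = 7.75). It passed in opposite directions between leaves of the same color, with −4.47 ± 0.059 in F_P vs. P (adjusted p = 1.6e-08) and 1.67 ± 0.20 in F_G vs. G (adjusted p = 0.00032), and no other of the 103 genes tested in both did so.

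Podel.06G216500 also had its highest level in P, with 11.4, 11.2, and 11.8 FPKM in F_P, 0.157, 0.362, and 1.10 FPKM in F_G, 118, 174, and 171 FPKM in P, and 0.319, 0.511, and 0.324 FPKM in G. It was higher in P than in F_P (−3.62 ± 0.14, adjusted p = 7.5e-07) and below the filter in both green groups. Another, Podel.08G076900, had 12.1, 14.5, and 15.5 FPKM in F_P, against 42.3, 59.2, and 58.5 FPKM in P (−1.84 ± 0.14, adjusted p = 2.5e-05). Its neighbour Podel.08G076800, with an exon length of only 159 bases, had 157, 139, and 131 FPKM in F_P, 26.3, 31.1, and 47.6 FPKM in F_G, 157, 243, and 228 FPKM in P, and 69.7, 60.7, and 22.9 FPKM in G, and did not pass in either comparison.

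Podel.10G198400 was high in both purple groups, with 397, 410, and 419 FPKM in F_P and 447, 576, and 549 FPKM in P, and differed mainly in green leaves, with 136, 148, and 119 FPKM in F_G against 29.3, 33.2, and 30.8 FPKM in G (2.07 ± 0.097, adjusted p = 2.8e-06). Podel.03G073500 averaged 26.9 FPKM in F_P, 7.60 FPKM in F_G, 20.4 FPKM in P, and 6.63 FPKM in G, and passed in neither comparison. Of the 51 further genes of the pathway that could be read, 9 of 43 tested were higher in F_P and 5 in F_G, and 15 of 48 were higher in P and 20 in G. In F_P vs. P, 14 of 44 were higher in F_P and 4 in P, the opposite majority to that among the 6 genes.

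**Figure D4:**
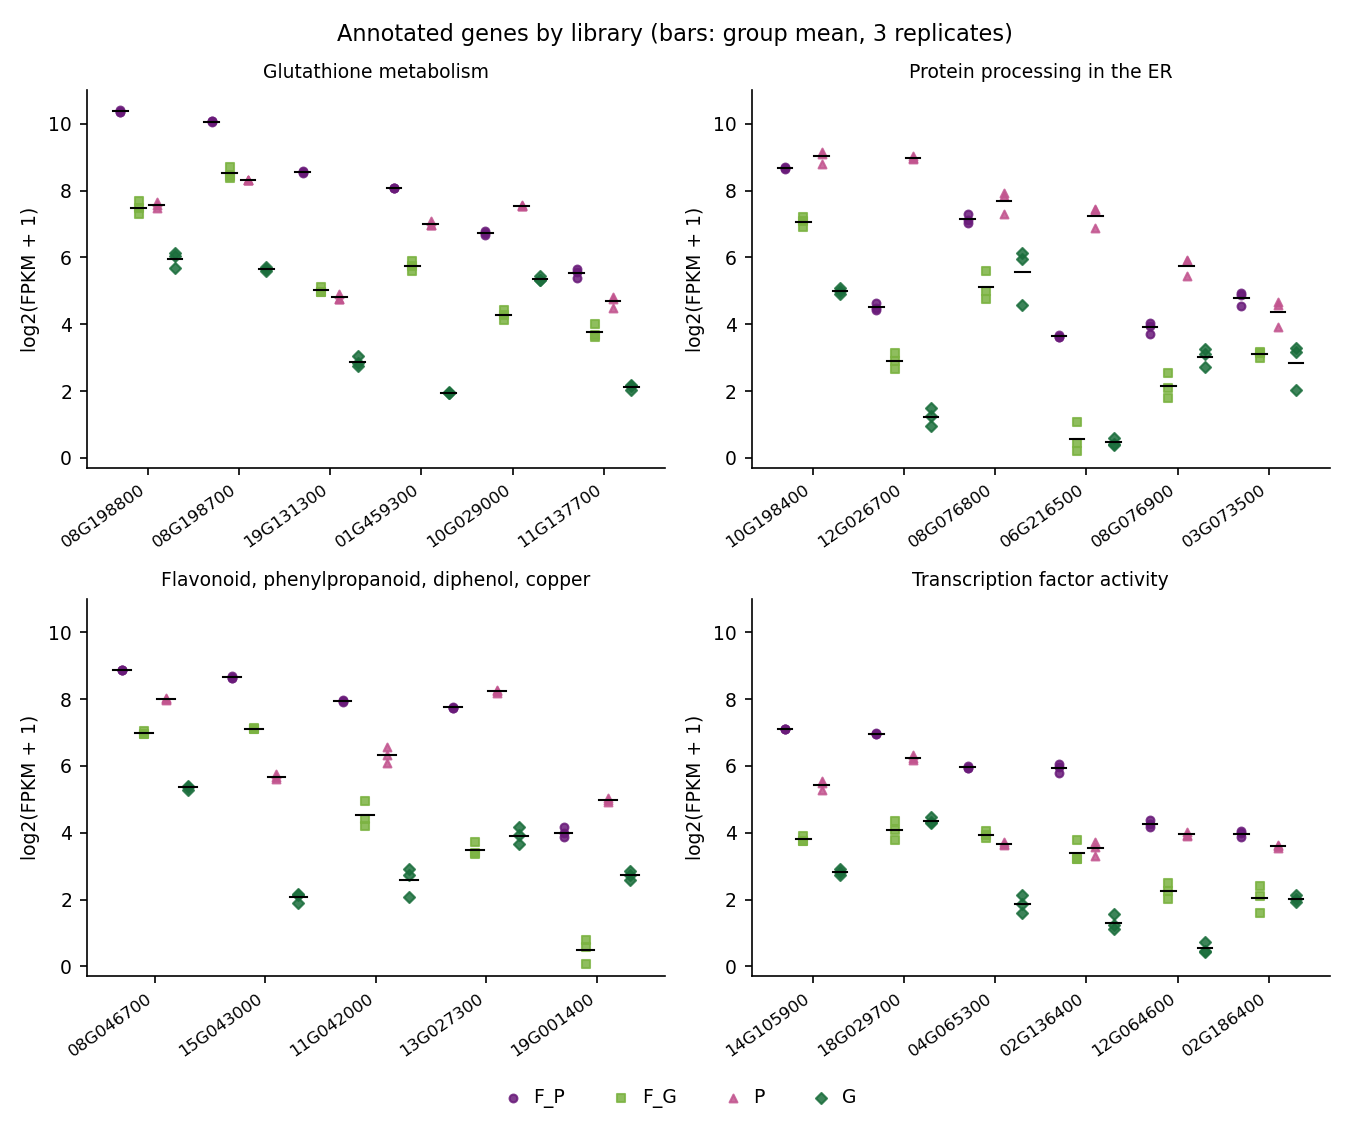
Points give log2(FPKM + 1) of single libraries and bars the mean of 3 replicates for the annotated genes, in panels by pathway or class, with F_P, F_G, P, and G from left to right for each gene (identifiers without the prefix Podel). Glutathione genes other than 10G029000 were lower in P than in F_P, whereas 12G026700 and 06G216500 reached 505 and 154 FPKM in P, against 21.9 and 11.4 FPKM in F_P.

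With the study's structural genes left out, the readable entries of flavonoid biosynthesis held 2 of the genes. Podel.19G001400, annotated under flavonoid, phenylpropanoid, and stilbenoid biosynthesis, had 14.8, 17.0, and 13.6 FPKM in F_P, 0.741, 0.494, and 0.0411 FPKM in F_G, 31.7, 30.5, and 29.3 FPKM in P, and 5.02, 6.31, and 5.66 FPKM in G. It was nearly absent from green ZSY leaves and higher in G than in F_G (−2.25 ± 0.22). The filter kept this gene through G only, so the difference in green leaves is no support by itself. In F_P vs. P the log2 fold change of −0.97 was just short of the threshold, and it reached −1.01 to −1.14 with a pseudocount of 0.1, with library totals, with voom, or without F_P replicate 2. Podel.13G027300, described above, differed little between leaves of the same color, with −0.48 ± 0.037 in F_P vs. P and −0.42 ± 0.16 in F_G vs. G.

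Podel.08G046700, annotated under both phenylalanine metabolism and phenylpropanoid biosynthesis, had 466, 471, and 464 FPKM in F_P, 122, 124, and 131 FPKM in F_G, 259, 256, and 249.6 FPKM in P, and 38.2, 41.1, and 40.8 FPKM in G. Its levels were high and tight, and it was higher in F_G than in G (1.63 ± 0.069, adjusted p = 2e-06). For comparison, the 8 genes left out included PdeCHS2, a chalcone synthase gene, which averaged 1053 FPKM in F_P, 177 FPKM in F_G, 782 FPKM in P, and 136 FPKM in G. Among the other 40 readable genes of flavonoid biosynthesis, 11 of 32 tested were higher in F_P and 13 in F_G, and 11 of 38 were higher in P and 21 in G.

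Oxidation of phenolic compounds was represented by Podel.11G042000, in the class of oxidoreductases that act on diphenols with oxygen as acceptor, to which laccases and catechol oxidases belong. It had 248, 247, and 242 FPKM in F_P, 20.4, 17.5, and 30.2 FPKM in F_G, 66.5, 93.2, and 79.1 FPKM in P, and 5.60, 6.61, and 3.22 FPKM in G. It was higher in F_P than in P (1.63 ± 0.11, adjusted p = 1.1e-05) and higher in F_G than in G (1.95 ± 0.26, adjusted p = 0.00054). Podel.15G043000, annotated as copper ion binding, showed the largest fold change of the 106 genes in green leaves. It had 411, 400.1, and 397 FPKM in F_P, 136, 139, and 138 FPKM in F_G, 48.2, 52.9, and 49.7 FPKM in P, and 3.42, 2.71, and 3.50 FPKM in G, so that green ZSY leaves lay above purple QHP leaves (5.05 ± 0.099 in F_G vs. G, adjusted p = 2.7e-07, and 2.98 ± 0.045 in F_P vs. P, adjusted p = 2.1e-08).

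Heme binding and oxidoreductase activity on paired donors, a class that includes cytochromes P450, was annotated for a pair of genes within bases 2870315 to 2923216 of chromosome 14, with 3 genes of at most 1.49 FPKM in any group mean between them. Podel.14G038600 had 268, 274, and 275 FPKM in F_P, 24.0, 19.0, and 19.6 FPKM in F_G, 19.6, 22.3, and 23.0 FPKM in P, and 0.906, 0.774, and 1.77 FPKM in G. Podel.14G039000 had 199, 206, and 197 FPKM in F_P, 29.9, 30.1, and 33.9 FPKM in F_G, 21.4, 24.4, and 24.1 FPKM in P, and 2.47, 3.30, and 3.25 FPKM in G. Both were higher in F_P than in P, by 3.60 ± 0.061 (adjusted p = 4.2e-08) and 3.06 ± 0.058 (adjusted p = 4.9e-08), and both were higher in F_G than in G, by 3.37 ± 0.20 (adjusted p = 7.9e-06) and 3.01 ± 0.13 (adjusted p = 2e-06).

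Transcription factor activity was annotated for 6 genes outside the study's lists of regulators, of which 3 were higher in F_P, none in P, 3 were higher in F_G, and none in G. These shares were near those of the whole set, where 44 of 106 genes were higher in F_P and 53 of 103 tested in F_G. Podel.14G105900 was the strongest of the 6, with 137 FPKM in each F_P library, 14.1, 12.6, and 12.6 FPKM in F_G, 38.0, 45.5, and 44.4 FPKM in P, and 5.64, 6.03, and 6.48 FPKM in G. It was higher in F_P than in P (1.66 ± 0.068, adjusted p = 1e-06), and its 0.999 ± 0.11 in F_G vs. G was just short of the threshold and reached 1.02 to 1.25 under other scalings, a pseudocount of 0.1, or without F_G replicate 2, F_G replicate 3, or G replicate 3. Podel.02G136400 averaged 60.9 FPKM in F_P, 9.75 FPKM in F_G, 10.7 FPKM in P, and 1.49 FPKM in G. Podel.04G065300 averaged 61.7 FPKM in F_P, 14.4 FPKM in F_G, 11.8 FPKM in P, and 2.69 FPKM in G, again with more in green ZSY leaves than in purple QHP leaves.

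Podel.18G029700, listed both as a transcription factor and under the plant circadian rhythm, had 126, 123, and 123 FPKM in F_P, 19.3, 12.9, and 15.9 FPKM in F_G, 70.9, 79.9, and 74.6 FPKM in P, and 18.8, 18.6, and 21.2 FPKM in G, and passed in neither comparison of the same color. Among the other readable genes of the circadian list, 10 of 16 tested were higher in F_P and none in F_G. In P vs. G, 8 of 19 were higher in P and 3 in G. The study listed these genes because they differed in these samples, so the counts are no independent evidence of direction. Podel.12G064600, a transcription factor with dimerization activity, averaged 18.4 FPKM in F_P, 3.84 FPKM in F_G, 14.6 FPKM in P, and 0.459 FPKM in G. It was higher in F_G than in G (1.72 ± 0.20), but the filter kept it through F_G only, so this is no support by itself. Podel.02G186400 averaged 14.8 FPKM in F_P, 3.22 FPKM in F_G, 11.1 FPKM in P, and 3.08 FPKM in G. Podel.10G213500, annotated for protein dimerization only, had 84.2, 89.6, and 86.9 FPKM in F_P, 9.87, 11.4, and 11.2 FPKM in F_G, 12.8, 17.3, and 14.4 FPKM in P, and 0.130, 0.139, and 0.0880 FPKM in G. It was higher in ZSY in both colors (2.48 ± 0.096 and 3.40 ± 0.15 on the log2 scale). In green leaves the filter kept this gene through F_G only, so the second value is no support by itself.

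Primary metabolism was represented by small groups. Podel.13G007400 and Podel.13G007500, neighbours on chromosome 13 annotated under galactose metabolism with glycosyl transferase activity, averaged 70.2 and 57.1 FPKM in F_P, 7.62 and 11.1 FPKM in F_G, 37.4 and 36.8 FPKM in P, and 3.01 and 2.86 FPKM in G. Neither passed in F_P vs. P, and both were higher in F_G than in G (1.17 ± 0.27, adjusted p = 0.0074, and 1.70 ± 0.25, adjusted p = 0.00078). For the first of these the log2 fold change was 0.87 without G replicate 3, below the threshold. In the rest of the galactose list 4 of 29 tested were higher in F_P and 7 in F_G, and 11 of 29 were higher in P and 12 in G. Podel.12G090900 and Podel.12G091000, neighbours annotated under nitrogen metabolism, averaged 87.1 and 28.8 FPKM in F_P, 15.8 and 4.83 FPKM in F_G, 30.3 and 13.5 FPKM in P, and 3.46 and 0.396 FPKM in G. Both were higher in ZSY in both colors, although the 1.05 ± 0.077 of Podel.12G091000 in F_P vs. P was 0.98 without P replicate 1, 0.94 under scaling to library totals, and 0.98 with voom. In green leaves the filter kept Podel.12G091000 through F_G only, so its difference there is no support by itself. Of the other readable genes of nitrogen metabolism, 4 of 27 tested were higher in F_P and 11 in F_G, and 7 of 25 were higher in P and 12 in G.

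Podel.03G202100 and Podel.03G202200, annotated under cysteine and methionine metabolism, overlap by start and end on the same strand of chromosome 3. Whether their exons overlap, so that reads could not be told apart, was not analysed. The smaller, Podel.03G202100, had 72.8, 65.1, and 70.3 FPKM in F_P, 5.91, 7.75, and 18.3 FPKM in F_G, 16.0, 24.0, and 26.5 FPKM in P, and 0.790, 0, and 0.964 FPKM in G. The larger averaged 119 FPKM in F_P, 31.0 FPKM in F_G, 89.5 FPKM in P, and 5.81 FPKM in G, and was higher in F_G than in G by 2.23 ± 0.11 (adjusted p = 3.4e-06). Among the other readable genes of this pathway, 6 of 43 tested were higher in F_P and 17 in F_G, and 10 of 45 were higher in P and 21 in G. Podel.01G413700, annotated under alpha-linolenic acid metabolism, the pathway from which jasmonate is made, had 29.2, 27.2, and 27.5 FPKM in F_P, 0.640, 0.460, and 0.355 FPKM in F_G, 12.0, 12.7, and 13.8 FPKM in P, and 1.81, 1.00, and 0.882 FPKM in G. Podel.17G005800, 1 of 3 genes annotated as polysaccharide binding, averaged 47.6 FPKM in F_P, 8.83 FPKM in F_G, 29.1 FPKM in P, and 4.97 FPKM in G. The first of these was higher in F_P than in P (1.07 ± 0.068, adjusted p = 1e-05, but 0.96 under scaling to library totals) and was below the filter in green leaves, and Podel.17G005800 did not pass in either color.

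Of the 18 KEGG pathways looked at, 11 held at least 1 of the 106 genes among their readable entries. None of the genes was among the readable entries of photosynthesis, antenna proteins, porphyrin and chlorophyll metabolism, carotenoid biosynthesis, carbon metabolism, starch and sucrose metabolism, or the spliceosome. Hormone signal transduction held Podel.02G187400, which averaged 61.2 FPKM in F_P, 19.2 FPKM in F_G, 23.1 FPKM in P, and 4.98 FPKM in G, and plant-pathogen interaction held Podel.01G144500, which averaged 33.9 FPKM in F_P, 10.6 FPKM in F_G, 14.7 FPKM in P, and 0.304 FPKM in G. Of the 46 annotated and 60 other genes, 19 and 25 were higher in F_P than in P.

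Among genes without annotation, Podel.13G140200 on chromosome 13 had the highest level of all, with 1552, 1594, and 1537 FPKM in F_P, 291, 283, and 261 FPKM in F_G, 710, 588, and 600.2 FPKM in P, and 52.6, 59.6, and 83.8 FPKM in G. It was higher in ZSY in both colors (1.31 ± 0.072 in F_P vs. P and 2.10 ± 0.16 in F_G vs. G). Podel.03G072900 had 214, 228, and 222 FPKM in F_P, 12.3, 10.1, and 6.91 FPKM in F_G, 14.8, 14.7, and 13.6 FPKM in P, and 1.19, 0.849, and 0.750 FPKM in G, and its 3.85 ± 0.050 (adjusted p = 1.6e-08) was the largest fold change in F_P vs. P. Podel.01G462400 averaged 71.8 FPKM in F_P, 14.1 FPKM in F_G, 32.2 FPKM in P, and 0.319 FPKM in G. Its log2 fold change in F_G vs. G was 3.51 ± 0.14, but the filter kept it through F_G only, so this is no support by itself.

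Podel.05G133000, a model of 129 bases, had 53.8, 61.3, and 52.1 FPKM in F_P, 12.6, 19.2, and 5.05 FPKM in F_G, 32.3, 23.7, and 23.3 FPKM in P, and no fragment in any G library. Taking 3 fragments per library (1.59 FPKM) as the limit of detection, its mean in F_G was at least 7.74-fold that in G. Its mean in P was at least 16.6-fold that in G. F_G replicate 3, at 5.05 FPKM, lay nearer to this limit than the F_G mean. In green leaves the filter kept this gene through F_G only, and P vs. G was used to choose it, so neither value is support by itself. The 1.06 of Podel.05G133000 in F_P vs. P fell below 1 without F_P replicate 2 (0.99), P replicate 2 (0.99), or P replicate 3 (0.98), and also under scaling to library totals (0.95) and with voom (0.96).

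On the chromosomes, 17 of the 106 genes lay in 8 groups of neighbours at most 5 annotated genes apart, 7 pairs and 1 group of 3. The group of 3, Podel.08G182600, Podel.08G182700, and Podel.08G182800, occupies bases 12896240 to 12912907 of chromosome 8, all on the minus strand, and none of the 3 is annotated. Podel.08G182600 had 82.4, 82.3, and 85.9 FPKM in F_P, 0.234, 0.937, and 0.467 FPKM in F_G, 272, 192, and 250.0 FPKM in P, and 5.47, 5.08, and 6.29 FPKM in G. Podel.08G182700 had 124, 113, and 113 FPKM in F_P, 1.23, 3.71, and 5.08 FPKM in F_G, 366, 257, and 274 FPKM in P, and 10.05, 18.3, and 19.6 FPKM in G. Podel.08G182800 had 174, 148, and 148 FPKM in F_P, 8.14, 6.46, and 5.58 FPKM in F_G, 226, 209, and 229 FPKM in P, and 57.0, 62.6, and 58.8 FPKM in G.

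All 3 were higher in G than in F_G (−2.12 ± 0.21, −2.03 ± 0.39, adjusted p = 0.0033, and −2.98 ± 0.13, adjusted p = 2.2e-06), and they make up 3 of the 5 genes that were. For Podel.08G182600, which the filter kept through G only, the value is no support by itself. The first pair was also higher in P than in F_P (−1.48 ± 0.12, adjusted p = 2.7e-05, and −1.34 ± 0.12, adjusted p = 6.6e-05). The 4 flanking genes averaged 0.137 to 4.59 FPKM in F_P and 0.138 to 11.4 FPKM in G, where Podel.08G183000 was the highest of them and lay above Podel.08G182600. This group thus ran against the majority of the 106 genes.

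Podel.06G259000, annotated under ubiquitin mediated proteolysis, and the unannotated Podel.06G259100 lie next to each other on opposite strands of chromosome 6 (25818361 to 25823055). The first averaged 611 FPKM in F_P, 130 FPKM in F_G, 364 FPKM in P, and 107 FPKM in G, and the second 922 FPKM in F_P, 126 FPKM in F_G, 415 FPKM in P, and 75.8 FPKM in G. Only the second passed in F_P vs. P (1.15 ± 0.045, adjusted p = 8.9e-07), and neither passed in F_G vs. G. Whether neighbours are near-identical copies that could share reads was not analysed here, since no sequence was at hand.

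**Figure D5:**
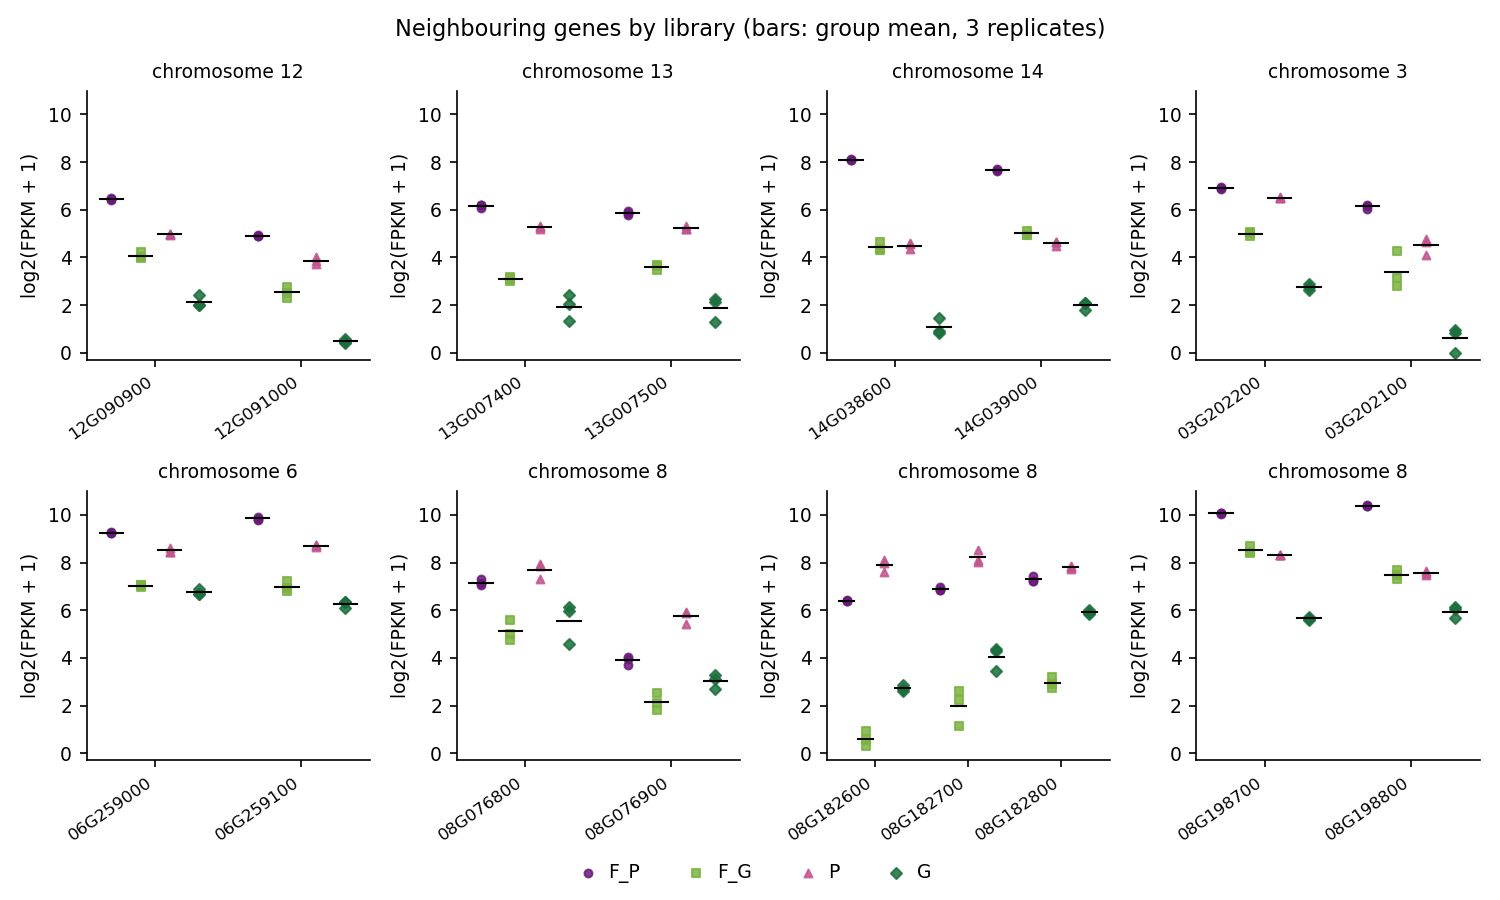
Points give log2(FPKM + 1) of single libraries and bars the mean of 3 replicates for the 17 genes of the 8 neighbour groups, 1 panel per group, with F_P, F_G, P, and G from left to right. In the group of 3 on chromosome 8 P was above F_P and G above F_G, while in the panel of 08G198700 and 08G198800 F_P was above P and F_G above G.

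Gene structure, which the choice did not use, differed between the 106 genes and the other 11047 annotated genes with at least 10 FPKM in both purple groups. Of the 106, 24 (22.6%) had a single exon and 55 (51.9%) at most 2 exons, against 9.04% and 21.1% of the other genes, and the median number of exons was 2 against 5. The median exon length was 1329.5 bases against 1560.0 bases. Gene models with a single exon made up 19.7% of all annotated genes, expressed or not. These shares are given as a description, without a test. Exon lengths ranged from 96 to 3988 bases, and 14 models were shorter than 300 bases, for which a given FPKM value rests on fewer fragments than in longer models. A pair of these did not separate F_P from F_G, and they were chosen for mention after their values were seen. Podel.06G145300 (96 bases) had 14.3, 9.73, and 13.8 FPKM in F_P, against 11.6, 0, and 6.11 FPKM in F_G, and was the only gene that did not pass in F_P vs. F_G (adjusted p = 0.135). Podel.08G043700 (159 bases) had 11.8, 20.4, and 20.4 FPKM in F_P, against 2.87, 13.3, and 2.46 FPKM in F_G. F_P and F_G libraries overlapped in these genes and in no other of the 106. The genes were found on all 19 chromosomes and 2 scaffolds, with 15 on chromosome 1 and 12 on chromosome 8, while 13 overlapped another gene model. Overlap was judged by start and end without comparing exons, and the sources do not say whether counting used the strand. Whether overlapping models share reads is therefore not known.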

How the data were processed

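RNA was sequenced from 12 leaf libraries (4 groups of 3 biological replicates). According to the study's methods and labels, HISAT2 mapped the reads and StringTie estimated expression (no version of either was found in the sources). The authors deposited 1 table of FPKM per library and a gene annotation without a named build, from which start, end, strand, and exons were taken. A fold change on log2(FPKM + 1) understates the change of low genes. FPKM times exon length gave whole fragments within 0.02 for all genes compared, 14543579 to 16628923 per library, so depth could be recovered.

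The genes and pathway lists were chosen with earlier results of these data known. Genes in the study's tables of structural genes and regulators (59) were left out. Each comparison used its 6 libraries, every gene that reached 1 FPKM in 3 or more of them, and the trend method of limma 3.58.1 (R 4.3.3) applied to log2(FPKM + 1), with Benjamini-Hochberg adjusted p over all genes tested. The test was tested on simulated data. Other values came from pandas 2.3.3 and numpy 2.4.6 under Python 3.11.15, with scipy 1.17.1 and figures by matplotlib 3.10.9.

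Named genes were the 10 with the largest smaller difference, the 5 with the highest purple level, the 15 annotated genes with the largest smaller difference, the 4 largest fold changes in each direction per comparison, the 3 genes on either side of the threshold, and genes at most 5 annotated genes apart. Other annotated genes of a described pathway or class, and a few singled out in the text, were added after their values were seen. Alternatives covered pseudocount, scaling, filter, thresholds, voom on recovered fragments, a common fit of all 12 libraries, a replicate block, and leaving out each library.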

Additional observations from a re-analysis of the deposited data

How the results depend on the processing

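The number of genes chosen was 330 with a difference of at least 1, 48 with at least 2, and 171 with no floor on FPKM. It was 127 with a pseudocount of 0.1, 143 with a floor of 5 FPKM, and 106 with median-of-ratios scaling, each including all of the 106. With library totals it was 122, with 5 of the 106 lost and 21 gained. Leaving out 1 library gave 105 to 110, with 101 to 106 of the 106 among them. In F_P vs. P, 44 genes were higher in F_P, 27 when tested against a log2 fold change of 1 (treat), 72 with no minimum fold change, and 43 to 44 when 1 library was left out. The 5 genes higher in P were 20 with no minimum fold change and 5 to 6 when 1 library was left out. In F_G vs. G, 53 genes were higher in F_G, 41 with treat, 66 with no minimum fold change, and 42 to 55 when 1 library was left out, the lowest counts (42 to 46) being without an F_G replicate, when 91 of the genes were tested. The 5 genes higher in G were 3 with treat, 8 with no minimum fold change, and 3 to 6 when 1 library was left out.

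Scaling to library totals moved the median of all genes by −0.10 (log2) in F_P vs. P, 0.12 in F_G vs. G, and 0.16 in P vs. G. In P vs. G, 3405 genes were then higher in P and 3690 in G, against 2618 and 4313 as deposited. In F_P vs. P, voom gave 1373 genes higher in F_P and 2433 in P, against 1250 and 1369. For single named genes, 1082 fold changes kept their direction and side of the threshold under an alternative, 37 came to pass it, 25 no longer did, and none changed direction.

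Replicate numbers showed no pairing of the libraries. Within ZSY (F_P vs. F_G), deviations of same-numbered libraries correlated at −0.025 to 0.013, and those of other numbers at −0.017 to 0.026. Between cultivars, same-numbered libraries correlated at −0.004 to 0.014 in F_P vs. P and at −0.237 to −0.052 in F_G vs. G. Other numbers reached 0.158 in F_G vs. G. With the replicate block, 44 genes were higher in F_P and 5 in P, and 54 were higher in F_G and 5 in G. Depth limited some of the genes shorter than 300 bases, since 5 of the 106 had under 50 fragments in a purple library.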
